A study of Saccharomyces pastorianus with 12 samples.

Results

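SpIB1 and SpIB2 are lager brewing strains of Saccharomyces pastorianus, the hybrid yeast of cold beer fermentation, and the comparison described here is whether their transcripts changed in the same way between day 2 and day 5 of a wort fermentation. All 12 of the 12 libraries of the series enter it, 3 in each of 4 groups: SpIB2 on day 5, SpIB2 on day 2, SpIB1 on day 5 and SpIB1 on day 2. Both strains grew in the same kind of brewing wort at 16 °C, and polyA libraries were made from hot-phenol RNA with an integrity number above 8. The series was set up to look for genes behind the unlike use of maltose and maltotriose by the strains. The labels name no genetic modification and do not say whether replicates were separate fermentations, so the p-values reflect spread among the libraries at hand, which may be technical. Strain identity was taken from the labels and was not checked with marker genes.

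Wort sugar is mostly maltose with some maltotriose, and yeast takes both up through alpha-glucoside permeases and splits them inside the cell with maltases. As sugar and good nitrogen sources run out, yeast cells are known to lower ribosome production and glycolytic transcripts, to raise stress-protection, trehalose and autophagy genes, and to release the genes for poorer carbon and nitrogen sources from repression. Sterol synthesis and the anaerobic cell wall mannoproteins are tied to the oxygen supply, which wort fermentation uses up early.

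Reads were counted per gene copy, since a hybrid can carry a copy of a gene from each parent; a number after the symbol (MAL32_1) names the copy. Of 11312 copies listed, 11277 had a readable count in every library and 10659 passed the expression filter and were tested. Library totals ran from 5133175 to 7922547 reads, and 3 reads, the smallest level regarded as detected, equal 0.379 to 0.584 CPM, a read count scaled for library size; this limit covers counting error only. SpIB2 day 2 replicate 3 and SpIB2 day 5 replicate 1 stood apart from their own group, with correlations of log levels of 0.897 to 0.906 and 0.915 to 0.923 to their partners, against 0.952 and 0.972 between the other libraries of those groups. The spread between replicates was larger in SpIB2 (biological coefficient of variation 0.370) than in SpIB1 (0.192). CPM values below are TMM-scaled, a scaling that assumes most genes do not change. The TMM factor of SpIB2 day 5 replicate 1 was 0.509, against 0.868 and 0.885 in replicates 2 and 3 of its group, and a smaller factor gives higher CPM. With plain library totals in its place the median interaction of all copies moved by -0.71 on the log2 scale, so each interaction below is relative to the scaling.

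The interaction of a copy is its log2 fold change between day 5 and day 2 in SpIB2 minus the same in SpIB1, tested with edgeR's quasi-likelihood method and called where p, adjusted over all copies by Benjamini-Hochberg, fell under 0.05. In bulk RNA a change in the makeup of a culture and a change per cell cannot be told apart. Time courses differed between the strains for 2819 of 10659 copies (26.4%). The interaction was positive for 1554 (14.6%) and negative for 1265 (11.9%), and the median absolute interaction among called copies was 1.77. More copies were called in SpIB2: 2325 rose and 2508 fell with time in SpIB2 (45.3% called), whereas 92 rose (0.863%) and 278 fell (2.61%) in SpIB1 (3.47% called). All groups shared an estimate of the spread, so the larger spread of SpIB2 entered the SpIB1 tests too. A SpIB1 day effect that missed the threshold is therefore not shown to be absent. The SpIB1 counts (up, then down) were 20 and 132, 31 and 143, and 24 and 122 when replicate 1, 2 or 3 of SpIB1 day 2 was left out. They were 21 and 66, and 27 and 76, when replicate 2 or 3 of SpIB1 day 5 was left out. They were 171 and 447 without SpIB2 day 2 replicate 3, and 366 and 547 without SpIB2 day 5 replicate 1. With voom weights per strain 991 rose and 1278 fell in SpIB1, beside 1588 and 1309 in SpIB2. Among the called interactions, 2382 copies had a called day effect in SpIB2 alone, 101 in SpIB1 alone and 276 in neither. On sums over the copies of a symbol 28.2% of symbols were called. With library totals the split was 692 positive and 2858 negative. The positive count was 1012 when replicate 3 of SpIB1 day 2 was left out and 997 when replicate 2 of SpIB1 day 5 was left out. The negative count was 711, 759 and 602 when replicate 1, 2 or 3 of SpIB1 day 2 was left out, and 761 and 715 when replicate 1 or 2 of SpIB1 day 5 was left out.

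**Figure D1:**
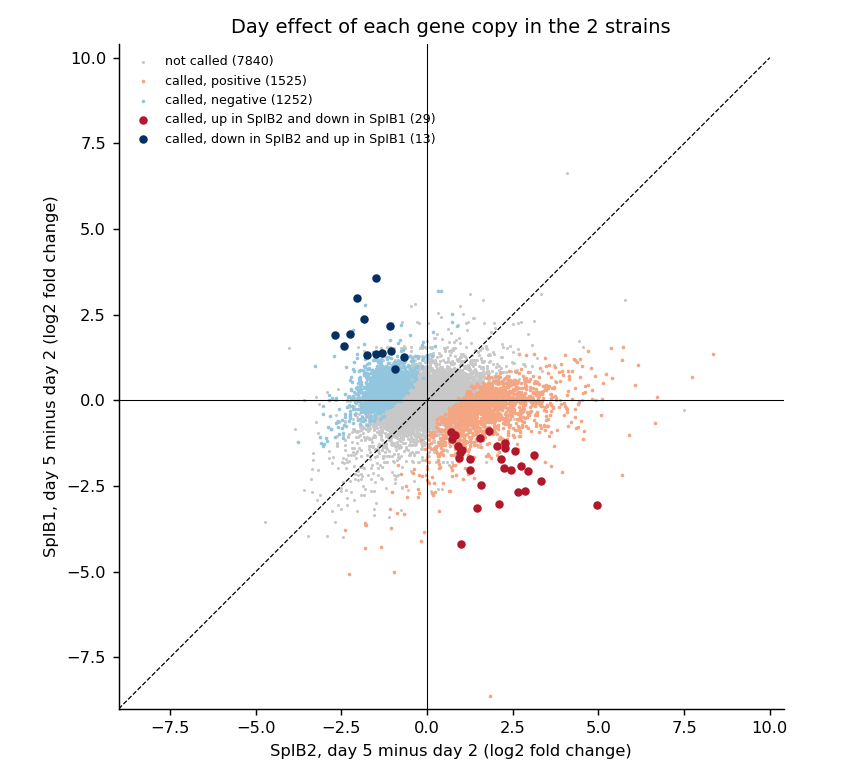
Each point is 1 of 10659 gene copies, with its change between day 5 and day 2 in SpIB2 on the x axis and in SpIB1 on the y axis, both as log2 fold changes. The dashed line marks equal change in both strains; 29 large red points rose in SpIB2 and fell in SpIB1, and 13 large dark blue points did the opposite.

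The maltose genes were described first, since the series asks about them. The maltases, which split maltose inside the cell, fell with time in SpIB2 in all 5 copies, and their interaction was negative in 5 of 5. In SpIB2, MAL32_1, the maltase copy with the most reads, had 3087, 3437 and 3094 CPM on day 5 and 8079.5, 8480.1 and 5477 CPM on day 2. In SpIB1 MAL32_1 had 4233, 6101 and 6111 CPM on day 5 and 2055, 2833 and 3304 CPM on day 2. The day 5 libraries lay below every day 2 library in SpIB2 and above every day 2 library in SpIB1. The interaction of MAL32_1 was -2.20 ± 0.52 SE on the log2 scale (edgeR adjusted p = 0.0102), with day effects of -1.20 ± 0.37 in SpIB2 (edgeR adjusted p = 0.0179) and 1.01 ± 0.37 in SpIB1, which missed the threshold (edgeR adjusted p = 0.156). MAL12_1, a second maltase gene, averaged 30.2 ± 3.87 CPM on day 5 and 68.6 ± 16.5 on day 2 in SpIB2 (SD, n = 3), and 74.2 ± 22.2 on day 5 and 47.3 ± 16.2 on day 2 in SpIB1. The interactions of MAL12_1, MAL12_2, MAL32_2 and MAL62 were -1.83 ± 0.45, -1.73 ± 0.44, -1.82 ± 0.45 and -1.66 ± 0.46. Of these 5 calls, that of MAL62 ended when replicate 1 of SpIB1 day 2 was left out and the others held in every alternative run. Near-identical maltase copies can share reads, within a symbol and between MAL12, MAL32 and MAL62, and the part of this in the values was not tested. Summed over its copies MAL32 gave -2.25 ± 0.48 (edgeR adjusted p = 0.00687) and MAL12 gave -1.84 ± 0.43 (edgeR adjusted p = 0.01).

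Among the alpha-glucoside transporters, 2 of 11 copies had a positive called interaction (18.2%, near the 14.6% over all copies) and 0 a negative one (edgeR; at an unadjusted p under 0.05 the counts were the same, with DESeq2 they were 2 and 0, and with library totals 0 and 1). MAL11, a broad transporter that also carries maltotriose, rose with time in SpIB2. In SpIB2, MAL11_1 had 66.3, 48.5 and 59.2 CPM on day 5 and 18.6, 17.5 and 26.9 CPM on day 2, and the days did not overlap. In SpIB1, MAL11_1 stood at 60.2, 75.6 and 76.4 CPM on day 5 and 67.5, 65.8 and 54.2 CPM on day 2, and the days overlapped. Its interaction was 1.28 ± 0.34 (edgeR adjusted p = 0.016) and was 0.54 with library totals, where the call ended. MAL11_3, a copy with few reads, rose in both strains, by 3.13 ± 0.52 in SpIB2 (edgeR adjusted p = 0.000531) and 2.32 ± 0.55 in SpIB1 (edgeR adjusted p = 0.0327); the difference of 0.81 ± 0.75 did not pass the test, with a 95% interval of -0.79 to 2.41. The maltose permease MAL31 gave no call in MAL31_1 and MAL31_2, the copies with the most reads. MAL31_1 averaged 1002 ± 339 CPM on day 5 and 1104 ± 222 CPM on day 2 in SpIB2, and 1198 ± 272 and 767 ± 164 CPM on those days in SpIB1 (interaction -0.78 ± 0.52, 95% interval -1.89 to 0.32). Library totals, and the fit without both SpIB2 libraries that stood apart, called MAL31_1 negative (-1.60 and -1.25). MAL31_2 gave an interaction of -0.26 ± 0.50, with an interval of -1.33 to 0.80. MAL31_4 rose in SpIB2 and had an interaction of 1.46 ± 0.44 (edgeR adjusted p = 0.0277), a call that ended in 8 alternatives. Summed over copies the interaction was 1.48 ± 0.37 for MAL11 (edgeR adjusted p = 0.013) and -0.52 ± 0.47 for MAL31 (edgeR adjusted p = 0.411). The call on the MAL11 sum ended with library totals. The median over the 11 transporter copies was 0.38, and with library totals it had the opposite sign (-0.39).

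The MAL activators and the zinc-cluster factor ZNF1 rose with time in SpIB2 in 4 of 7 copies, the same 4 that had a positive interaction. The activator copy MAL63 had 51.8, 35.5 and 34.3 CPM on day 5 and 8.84, 7.68 and 9.38 CPM on day 2 in SpIB2, a gap between the days, and 6.69, 5.99 and 6.63 CPM on day 5 and 3.68, 4.08 and 6.09 CPM on day 2 in SpIB1, where the days overlapped. Its interaction was 1.75 ± 0.36 (edgeR adjusted p = 0.00603). MAL33_3, another activator copy, averaged 404 ± 149.8 CPM on day 5 and 77 ± 17.6 on day 2 in SpIB2, and 77.9 ± 25.9 and 42.7 ± 5.36 on those days in SpIB1, an interaction of 1.53 ± 0.48 (edgeR adjusted p = 0.0338). ZNF1_1 and ZNF1_2 gave 1.80 ± 0.59 and 1.93 ± 0.54. Summed over its copies, MAL33 gave 0.72 ± 0.39, which was not called (edgeR adjusted p = 0.169). The ZNF1 sum gave 1.78 ± 0.55 (edgeR adjusted p = 0.0286). That call ended with library totals, with the replicate number as a block and with several single libraries left out. MAL33_2 rose in SpIB1 (0.89 ± 0.23, edgeR adjusted p = 0.045), and its interaction of -0.43 ± 0.31 was not called. With library totals the 4 calls ended, the median of the 7 copies was 0.70 in place of 1.53, and those of MAL33_3 and ZNF1_1 ended in 10 alternatives each. Among 17 copies of the isomaltases, which split related sugars, 11 rose in SpIB2 (21.8% did over all copies), 0 were called up in SpIB1 (0.863% over all copies), and 3 had a positive interaction (17.6%, near the 14.6% over all copies). IMA2_6 led them with 133, 76 and 75.9 CPM on day 5 and 18.4, 23.7 and 28 CPM on day 2 in SpIB2, against 43.8, 45.3 and 53.9 CPM on day 5 and 49.5, 51.5 and 55.5 CPM on day 2 in SpIB1 (interaction 2.15 ± 0.37, edgeR adjusted p = 0.00236), and IMA2_8 and IMA2_9 gave 1.64 ± 0.57 and 1.82 ± 0.42, where the call of IMA2_8 ended in 15 alternatives. Over all 40 copies of the maltose list, 9 were positive (22.5%) and 5 negative (12.5%), and the list's median of 0.36 became -0.41 with library totals, where 2 and 6 were called. The 9 positive copies numbered 4 when replicate 2 or 3 of SpIB1 day 2 or replicate 1 of SpIB1 day 5 was left out, and 5 when replicate 1 of SpIB2 day 2 was left out or with the replicate number as a block.

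**Figure D2:**
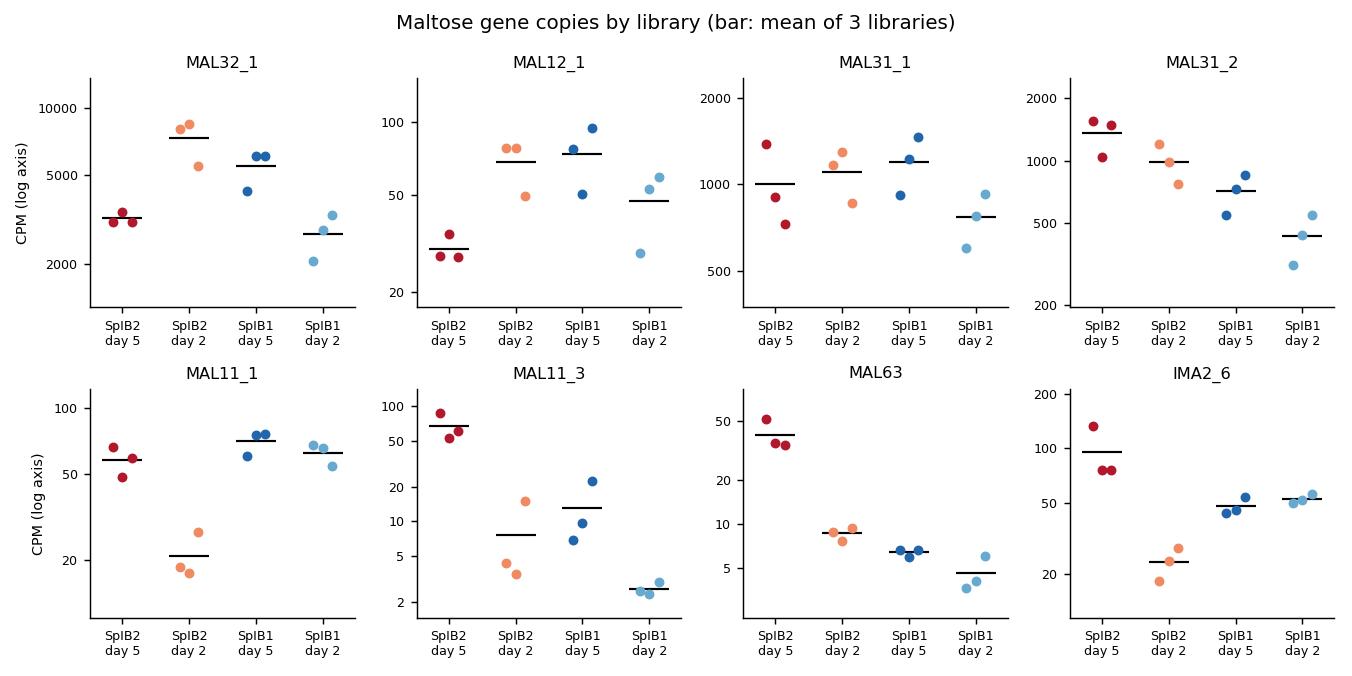
Each panel shows 1 maltose gene copy, with its TMM-scaled CPM on a log axis in every library of the 4 groups and a bar at the mean of 3 libraries. The maltases MAL32_1 and MAL12_1 were lower on day 5 than on day 2 in SpIB2, MAL11_1, MAL63 and IMA2_6 were higher, and the permease copies MAL31_1 and MAL31_2 overlapped between the days in SpIB2.

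Opposite time courses, called in the interaction and in each strain's own day effect, were found for 42 copies: 29 rose in SpIB2 and fell in SpIB1 (0.272% of copies tested), and 13 fell in SpIB2 and rose in SpIB1 (0.122%). Of the 29, 23 carried a gene symbol, and 7 of those stood in the list of general stress genes. SIP18, a hydrophilin made on drying and salt stress, did so in both copies. In SpIB2, SIP18_1 had 444, 661 and 755 CPM on day 5 and 137, 83.8 and 37.5 CPM on day 2. In SpIB1, SIP18_1 gave 189, 92.3 and 98.5 CPM on day 5 and 811, 624 and 921 CPM on day 2. Both strains' days were separate, in opposite orders, and the levels of SpIB2 on day 5 overlapped those of SpIB1 on day 2. The day effects of SIP18_1 were 2.85 ± 0.48 in SpIB2 and -2.63 ± 0.47 in SpIB1, and the interaction was 5.48 ± 0.67 (edgeR adjusted p = 0.000344). Its partner copy SIP18_2 gave 5.12 ± 0.62, and GRE1, a hydrophilin as well, gave 4.24 ± 0.41. SPI1_2, a cell wall protein of starved and acid-stressed cells, had 4032, 2636 and 2581 CPM on day 5 and 291, 476 and 434 CPM on day 2 in SpIB2, against 41.5, 82.1 and 83.9 CPM on day 5 and 243, 239 and 379 CPM on day 2 in SpIB1. HSP12_2, a small heat shock protein that stabilises membranes, stood at 7807, 5018 and 4899 CPM on day 5 and 1154, 853 and 658 CPM on day 2 in SpIB2, against 173, 178 and 248 CPM on day 5 and 619.6, 577 and 1075 CPM on day 2 in SpIB1. Neither copy overlapped between the days in either strain, and their interactions were 5.00 ± 0.58 (edgeR adjusted p = 0.000246) and 4.66 ± 0.58 (edgeR adjusted p = 0.00035). The other copy of this gene, HSP12_1, chosen after its values were seen, fell in both strains, with day effects of -1.06 ± 0.41 in SpIB2, where the days overlapped, and -3.72 ± 0.45 in SpIB1 (interaction 2.66 ± 0.59). Summed over both copies, HSP12 rose in SpIB2 (2.31 ± 0.39, edgeR adjusted p = 0.000675) and fell in SpIB1 (-2.90 ± 0.40, edgeR adjusted p = 0.0013). On such sums SPI1 rose in SpIB2 (3.48 ± 0.45, edgeR adjusted p = 0.000123), but its fall in SpIB1 missed the threshold (-1.05 ± 0.41, edgeR adjusted p = 0.179).

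Other copies that rose in SpIB2 and fell in SpIB1 had varied roles. HXT13_3, a hexose and polyol transporter, had 1571, 369 and 284 CPM on day 5 and 43.7, 115 and 195 CPM on day 2 in SpIB2, against 9.41, 15 and 23.1 CPM on day 5 and 108, 93.2 and 100.1 CPM on day 2 in SpIB1. SpIB2 day 5 replicate 1 was the highest library, and without it the interaction of HXT13_3 was 4.10 in place of 5.31. TKL2_2, a minor transketolase, gave 4.02 ± 0.67, and PAU17_2, a seripauperin of the anaerobic cell wall, 5.20 ± 0.53. Summed over its copies, PAU17 had no called day effect in SpIB2 (-0.14 ± 0.33, edgeR adjusted p = 0.746). The PAU17 sum fell in SpIB1 (-4.58 ± 0.37, edgeR adjusted p = 2.33e-05). UPC2_1, the factor that switches on sterol uptake and synthesis genes, had 255, 213 and 144 CPM on day 5 and 102, 109 and 45.7 CPM on day 2 in SpIB2, against 72.6, 38.4 and 46.2 CPM on day 5 and 144, 178 and 189.5 CPM on day 2 in SpIB1, an interaction of 2.95 ± 0.52 (edgeR adjusted p = 0.00262). Singled out after their values were seen, the heme synthesis enzyme HEM14_2 gave 2.65 ± 0.37 and the aldehyde dehydrogenase ALD3_1 gave 3.39 ± 0.39. Their partner copies HEM14_1 (0.03) and ALD3_2 (0.58) were not called.

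The 13 copies that went the other way were mainly nitrogen genes: 12 had a symbol, and 9 of the 13 stood in the list of nitrogen catabolite repression genes, which yeast keeps off while good nitrogen sources last. GAP1, the general amino acid permease, did so in both copies. In SpIB2, GAP1_1 had 35, 66.7 and 39.4 CPM on day 5 and 261, 223 and 421 CPM on day 2. In SpIB1 the same copy had 735, 688 and 882 CPM on day 5 and 177, 235 and 198 CPM on day 2. Day 5 was the low day in SpIB2 and the high day in SpIB1, without overlap, and the interaction was -4.60 ± 0.51 (edgeR adjusted p = 0.000224). GAP1_2 gave -2.85 ± 0.41, and the sum over both copies -3.54 ± 0.40. DIP5, the permease for glutamate and aspartate, stood at 137, 310.4 and 289 CPM on day 5 and 1167, 794 and 1568 CPM on day 2 in SpIB2, against 1118, 1597 and 1203 CPM on day 5 and 352, 462 and 206 CPM on day 2 in SpIB1. OPT2, an oligopeptide transporter, had 227, 319.9 and 247 CPM on day 5 and 1086, 637 and 506 CPM on day 2 in SpIB2, against 665, 1401 and 1597 CPM on day 5 and 66.3, 134 and 108 CPM on day 2 in SpIB1, an order of days that was again reversed between the strains. The interactions were -4.20 ± 0.62 for DIP5 (edgeR adjusted p = 0.000968) and -5.06 ± 0.63 for OPT2 (edgeR adjusted p = 0.000351). DUR3_1, which takes up urea, averaged 58.3 ± 27.3 CPM on day 5 and 209 ± 153 on day 2 in SpIB2, and 1427 ± 633 on day 5 and 277 ± 148 on day 2 in SpIB1 (interaction -4.21 ± 0.83). PTR2_1, a peptide transporter, gave -3.99 ± 0.56, DAL4_1, the allantoin permease, -3.25 ± 0.55, CAR1_1, the arginase, -2.69 ± 0.47 (its partner CAR1_2 -3.98 ± 0.80), and DAL3_2, of allantoin breakdown, -2.50 ± 0.50.

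Both counts of opposite copies moved with single libraries. The 29 copies numbered 12, 15 and 7 when replicate 1, 2 or 3 of SpIB1 day 2 was left out, 15, 4 and 6 when replicate 1, 2 or 3 of SpIB1 day 5 was left out, and 60 when replicate 1 of SpIB2 day 5 was left out. The 13 copies numbered 2, 5 and 3 when replicate 1, 2 or 3 of SpIB1 day 2 was left out, 3 and 3 when replicate 2 or 3 of SpIB1 day 5 was left out, and 57 when replicate 1 of SpIB2 day 5 was left out. The interaction calls of the 20 opposite copies named above held in every alternative.

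**Figure D3:**
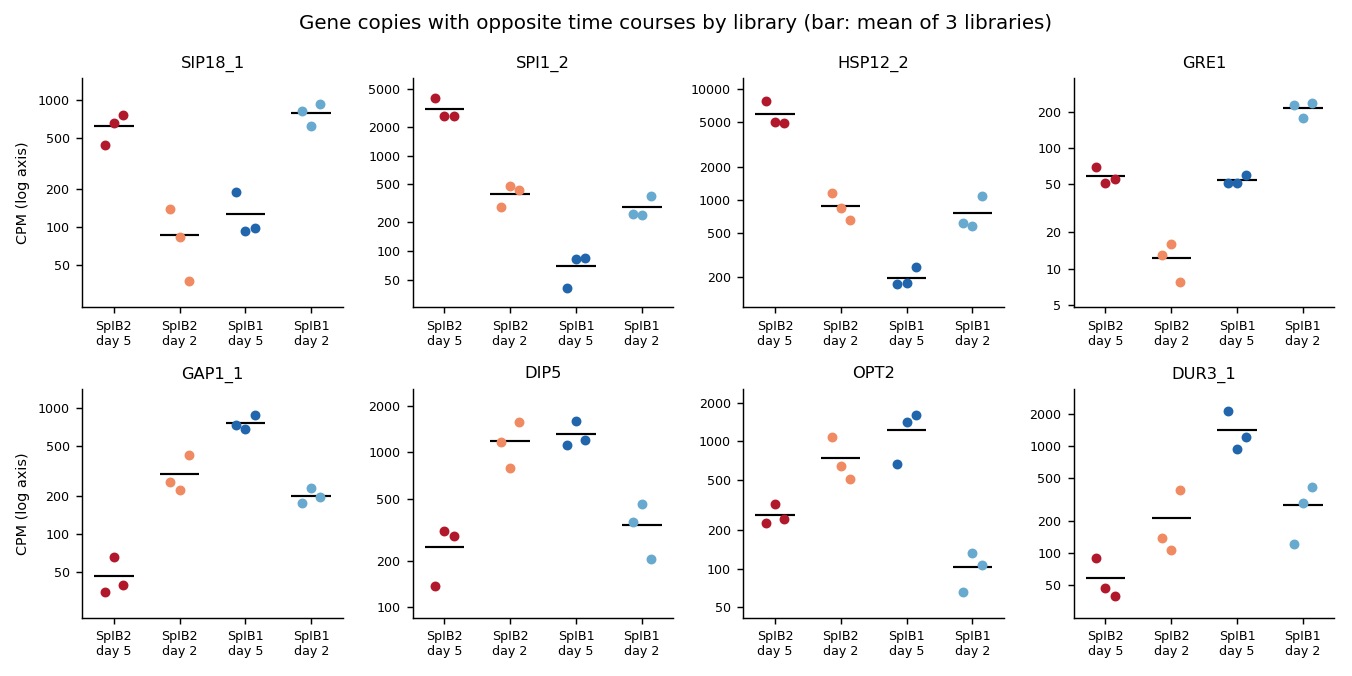
Each panel shows 1 gene copy with opposite time courses, with its TMM-scaled CPM on a log axis in every library and a bar at the mean of 3 libraries. In the upper row day 5 lay above day 2 in SpIB2 and below it in SpIB1, and in the lower row the order was reversed, without overlap between the days of a strain in any panel.

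Over the whole nitrogen catabolite repression list, opposite copies included, 37 of 92 copies had a negative interaction (40.2%, against 11.9% over all copies). A positive one was called for 8 (8.70%, against 14.6%). The list's median day effect was -0.44 in SpIB2 and 0.48 in SpIB1, and that of the interaction was -0.78, against -0.07 over all copies. In SpIB2 39 copies fell and 15 rose with time, and in SpIB1 4 fell and 11 rose. The 9 opposite copies of the list are among the 39 and the 11. PUT4_1, the proline permease, had 29.9, 17.5 and 12.3 CPM on day 5 and 11.9, 19.2 and 177 CPM on day 2 in SpIB2, against 684, 812 and 1112 CPM on day 5 and 118, 185 and 77.8 CPM on day 2 in SpIB1, where the days did not overlap. In SpIB2 the days overlapped, with day 2 replicate 3 far above the rest, and neither day effect of PUT4_1 passed the test although the interaction did (-4.58 ± 1.11, edgeR adjusted p = 0.0115). Without both SpIB2 libraries that stood apart it was -2.84. DAL7_1, a malate synthase of allantoin use, averaged 163 ± 118 CPM on day 5 and 1565 ± 773 on day 2 in SpIB2, and 1258 ± 615 on day 5 and 625 ± 129.9 on day 2 in SpIB1 (interaction -4.27 ± 0.80).

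**Figure D4:**
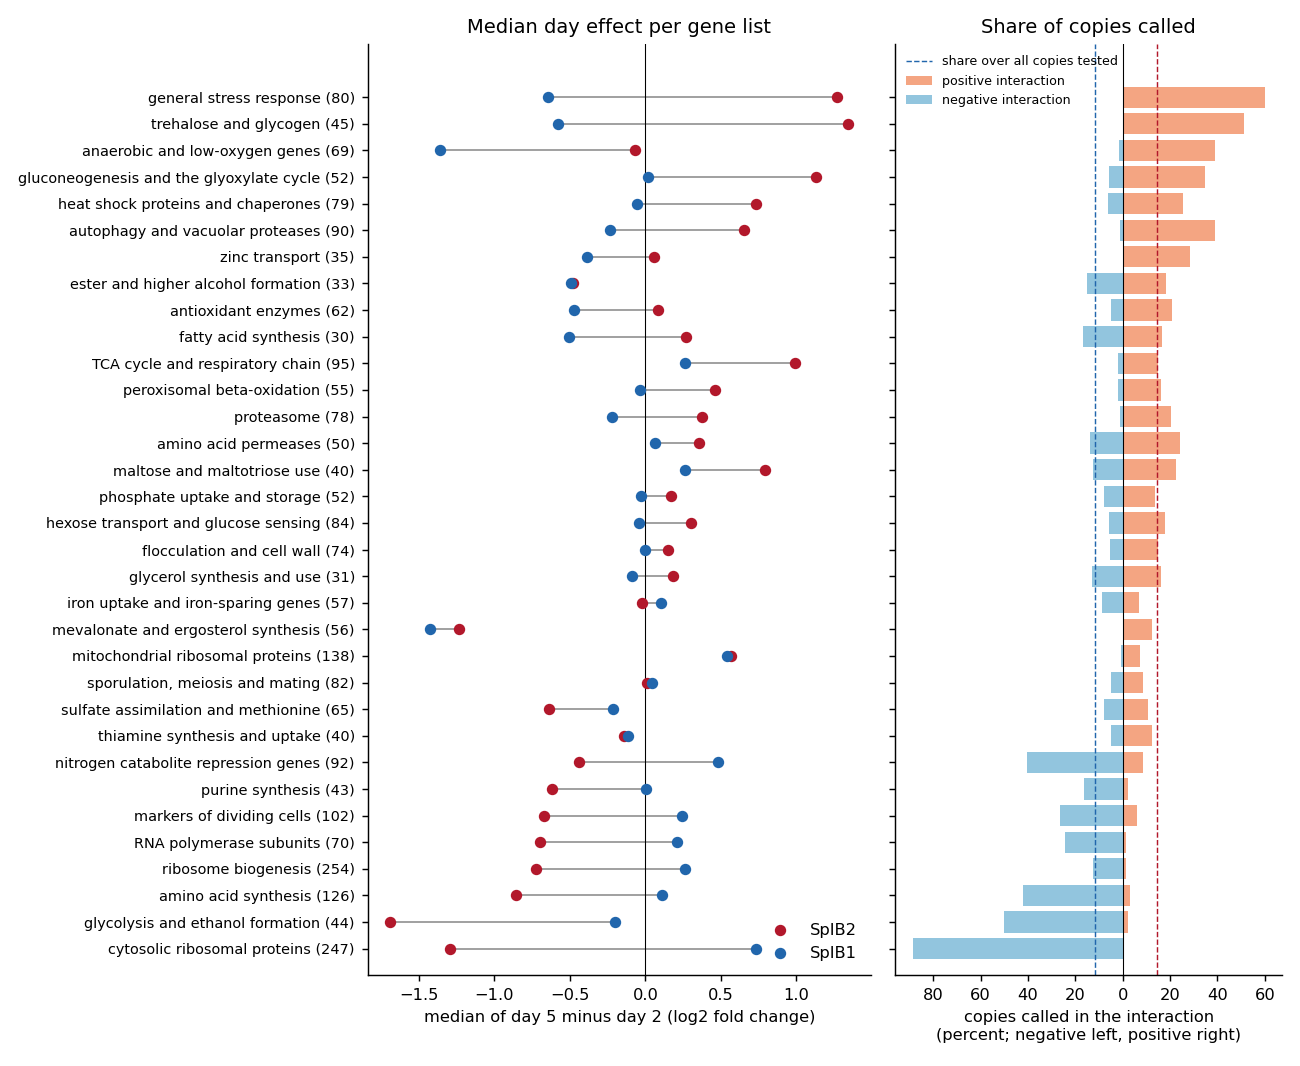
The left panel gives the median day effect (day 5 minus day 2, log2 fold change) of 33 gene lists in SpIB2 (red) and SpIB1 (blue), with the number of copies tested in parentheses. The right panel gives the percent of copies with a called positive or negative interaction, and dashed lines mark the shares over all copies tested, 14.6% and 11.9%; stress and ribosomal protein genes stand at the ends of the order.

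General stress genes moved up in SpIB2 with no matching rise in SpIB1. Of 80 copies, 48 had a positive interaction and 0 a negative one (edgeR; 56 and 0 at an unadjusted p under 0.05, 55 and 0 with DESeq2, and 37 and 2 with library totals). The list's median day effect was 1.27 in SpIB2, where 46 copies rose and 5 fell, and -0.65 in SpIB1, where 0 rose and 14 fell. HSP30, a stress protein of the plasma membrane, had 10397, 4674 and 2818 CPM on day 5 and 32.1, 81.5 and 56.9 CPM on day 2 in SpIB2, against 164, 222 and 389 CPM on day 5 and 279, 218 and 232 CPM on day 2 in SpIB1. All 3 SpIB2 libraries of day 5 lay far above the other libraries, whereas the SpIB1 days overlapped. The interaction was 6.62 ± 0.78 (edgeR adjusted p = 0.000272). SPG4_1, a gene of stationary-phase survival, averaged 1419.6 ± 305 CPM on day 5 and 6.65 ± 3.13 on day 2 in SpIB2, and 143 ± 44.5 and 89.1 ± 15.4 CPM on those days in SpIB1, an interaction of 7.05 ± 0.59. SSA3_1, a stress-induced chaperone, gave 5.66 ± 0.92. Trehalose and glycogen genes, which make and use the stored carbohydrates, had 23 of 45 copies positive (51.1%) and 0 negative (edgeR; 33 and 0 at an unadjusted p under 0.05, 31 and 0 with DESeq2), with a median of 2.07. Their median day effect was 1.34 in SpIB2, where 25 rose and 1 fell, and -0.58 in SpIB1, where 0 rose and 1 fell. ATH1_2, the acid trehalase, and GSY2_2, a glycogen synthase, gave 3.93 ± 0.74 (edgeR adjusted p = 0.00344) and 3.88 ± 0.87 (edgeR adjusted p = 0.00845).

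Autophagy and vacuolar protease genes had 35 of 90 positive (38.9%) and 1 negative. ATG32_2, the receptor for breakdown of mitochondria, had 2756, 730.5 and 745 CPM on day 5 and 52.1, 78.9 and 69.2 CPM on day 2 in SpIB2, against 89.2, 72.4 and 87.5 CPM on day 5 and 155, 144 and 125 CPM on day 2 in SpIB1. It was high in SpIB2 on day 5. In SpIB1 every day 5 library lay below every day 2 library, though the difference missed the threshold (-0.77 ± 0.46, edgeR adjusted p = 0.403). The interaction of ATG32_2 was 5.17 ± 0.68, and 4.21 without SpIB2 day 5 replicate 1, its highest library. PRB1_2, a vacuolar protease, gave 3.21 ± 0.79, or 2.08 without that library. The 35 positive copies numbered 22 when replicate 3 of SpIB1 day 2 was left out, 19 and 23 when replicate 1 or 2 of SpIB1 day 5 was left out, and 15 (with 6 negative) with library totals. Among heat shock proteins and chaperones 20 of 79 were positive (25.3%, against 14.6% over all copies) and 5 negative (6.33%, against 11.9%). The 5, listed after their values were seen, were SSB1_1 (-1.82), SSB1_2 (-1.78), SSB1_3 (-1.95), SSB2_1 (-2.01) and CPR7_2 (-2.31). These 5 numbered 2, 2 and 1 when replicate 1, 2 or 3 of SpIB1 day 2 was left out. They numbered 2 when replicate 1 or 3 of SpIB1 day 5, or replicate 3 of SpIB2 day 2, was left out. HSP26_2 and HSP42_2, small heat shock proteins that hold aggregates, gave 4.83 ± 0.83 and 3.15 ± 0.79, and both also count in the stress list. The 20 chaperone copies numbered 13, 11 and 9 when replicate 1, 2 or 3 of SpIB1 day 2 was left out, 8 and 11 when replicate 1 or 2 of SpIB1 day 5 was left out, 10 and 41 when replicate 1 or 3 of SpIB2 day 2 was left out, and 13 when replicate 1 of SpIB2 day 5 was left out. With library totals 8 chaperone copies were positive and 9 negative.

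Ribosomal protein genes fell with time in SpIB2 and did not fall in SpIB1. Of 247 copies of cytosolic ribosomal proteins, 219 had a negative interaction (88.7%) and 0 a positive one (edgeR; 239 and 0 at an unadjusted p under 0.05, 233 and 0 with DESeq2). The median day effect was -1.29 in SpIB2, where 200 copies fell and 0 rose, and 0.73 in SpIB1, where 1 rose and 0 fell. Day effects had opposite sign in 245 of the 247 copies, against 49.0% of all copies tested. That count goes by sign alone, and only 1 of the 247 was called in both strains in opposite directions. Large-subunit (120 of 136) and small-subunit genes (90 of 101) had negative interactions, with medians of -1.95 and -2.04. In SpIB2, RPL9B_1, of the large subunit, had 22, 115 and 87.4 CPM on day 5 and 612, 209.8 and 349.9 CPM on day 2. In SpIB1, RPL9B_1 stood at 278, 197 and 177 CPM on day 5 and 108, 120.2 and 106 CPM on day 2. The days did not overlap in either strain and ran in opposite orders, and the interaction was -3.35 ± 0.72 (edgeR adjusted p = 0.00691). RPL9B_2 and the small-subunit copy RPS1B_2 gave -3.23 ± 0.67 and -3.00 ± 0.59. The lowest library for these 3 copies was SpIB2 day 5 replicate 1, and without it their interactions were -2.94, -2.82 and -2.67. The 219 copies numbered 135 and 122 when replicate 1 or 3 of SpIB1 day 2 was left out, 131 when replicate 1 of SpIB1 day 5 was left out, and 217 without both SpIB2 libraries that stood apart.

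Ribosome biogenesis genes, which process and assemble ribosomes, had 32 of 254 negative (12.6%, near the background of 11.9%) and 4 positive, with a median of -1.01. That negative count was 18 and 6 when replicate 1 or 3 of SpIB1 day 2 was left out, 11 and 17 when replicate 1 or 2 of SpIB1 day 5 was left out, 67 and 18 when replicate 2 or 3 of SpIB2 day 2 was left out, 79 when replicate 2 of SpIB2 day 5 was left out, and 117 with library totals. NOP56_2, a core protein of ribosomal RNA methylation, gave -2.35 ± 0.62 (edgeR adjusted p = 0.0168). RPF1_2, also of ribosome assembly, went the other way (interaction 3.11 ± 0.57). In SpIB2 it had 217, 357 and 207 CPM on day 5 and 17.9, 14.7 and 43.5 CPM on day 2. In SpIB1 it had 32.4, 23.5 and 22.7 CPM on day 5 and 24.5, 26.4 and 15.3 CPM on day 2, and the days overlapped. Its partner copy RPF1_1, given after its value was seen, was not called (-0.42). Among mitochondrial ribosomal proteins 10 of 138 were positive (7.25%, below the 14.6% over all copies) and 1 negative, or 3 and 9 with library totals. The median interaction was 0.01 (-0.67 with library totals), and the median day effects were 0.57 in SpIB2 and 0.54 in SpIB1. These 10 numbered 6, 5 and 4 when replicate 1, 2 or 3 of SpIB1 day 2 was left out, and 3 and 5 when replicate 1 or 2 of SpIB1 day 5 was left out.

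Glycolysis and ethanol formation had 22 of 44 copies with a negative interaction and 1 positive. The list's median day effect was -1.69 in SpIB2, where 33 copies fell, and -0.20 in SpIB1, where 2 fell. PDC5_1, a pyruvate decarboxylase, had 87.5, 115 and 84.5 CPM on day 5 and 541, 727 and 231 CPM on day 2 in SpIB2, against 308, 256 and 362 CPM on day 5 and 226, 216 and 364 CPM on day 2 in SpIB1. It fell in SpIB2 without overlap, while the SpIB1 days overlapped, and the interaction was -2.58 ± 0.57 (edgeR adjusted p = 0.00758). The hexose kinases divided. HXK2, the main hexokinase during growth on glucose, gave -2.61 ± 0.67, and GLK1, the glucokinase, rose in SpIB2 with 7867, 3784 and 2967 CPM on day 5 and 473, 707 and 613 CPM on day 2, against 575, 1439 and 1912 CPM on day 5 and 926, 1349 and 1767 CPM on day 2 in SpIB1 (interaction 3.07 ± 0.71, edgeR adjusted p = 0.00927). GLK1 was the 1 positive copy of the list. The 22 negative copies numbered 9 and 13 when replicate 1 or 2 of SpIB1 day 2 was left out, 11 when replicate 3 of SpIB1 day 5 was left out, and 32 with library totals. Amino acid synthesis had 53 of 126 negative (42.1%) and 4 positive, with a median of -1.02. LEU2, of leucine synthesis, averaged 104 ± 58.8 CPM on day 5 and 423 ± 79.5 on day 2 in SpIB2, and 604 ± 86.5 on day 5 and 428 ± 79.5 on day 2 in SpIB1 (interaction -2.52 ± 0.59, edgeR adjusted p = 0.00972). The branched-chain aminotransferase BAT1 gave -2.57 ± 0.54 and -2.41 ± 0.55 in its copies BAT1_1 and BAT1_2. The 53 copies numbered 32 and 31 when replicate 1 or 3 of SpIB1 day 2 was left out and 83 with library totals.

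**Figure D5:**
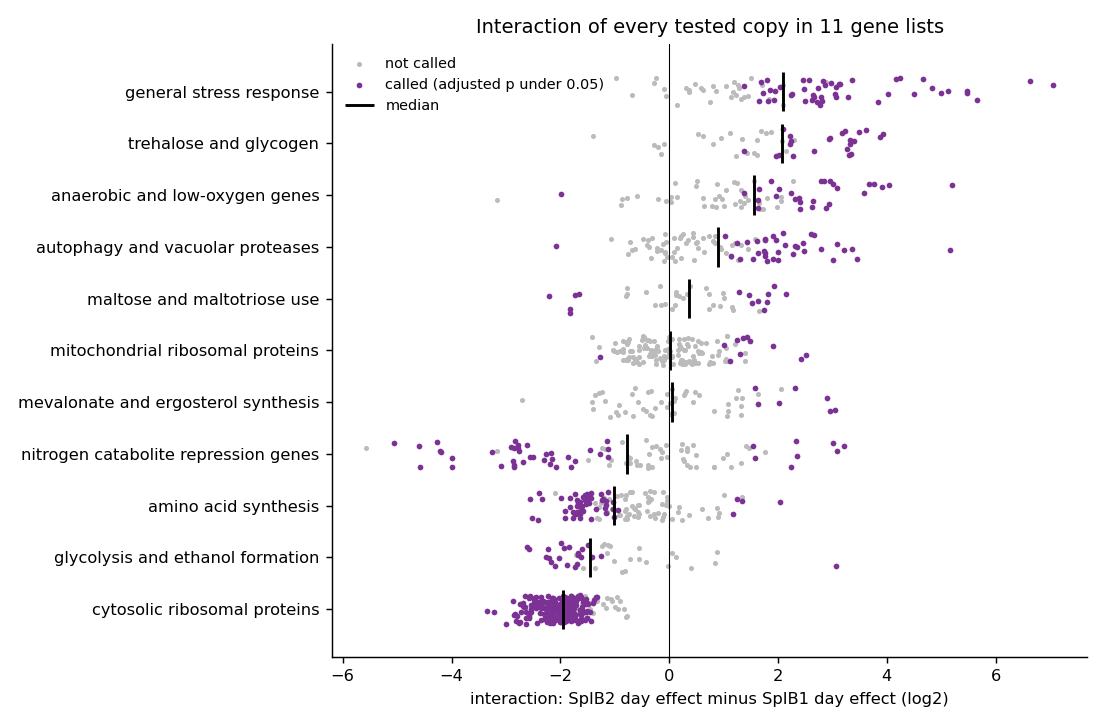
Each point is the interaction (log2) of 1 tested copy in 11 gene lists, purple where called and grey where not, with a bar at the list's median. Ribosomal protein copies all lie below 0, stress and trehalose copies mostly above it, and nitrogen and maltose genes spread to both sides.

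Low-oxygen genes fell in SpIB1 and were called both ways in SpIB2. Of 69 copies 27 had a positive interaction (39.1%) and 1 a negative one, with a median of 1.57. With library totals 18 were positive and 5 negative, with a median of 0.69. The median day effect was -0.07 in SpIB2, where 19 fell and 14 rose, and -1.36 in SpIB1, where 31 fell and 0 rose. The seripauperins (PAU), wall mannoproteins made without oxygen, had 11 of 20 copies positive and 0 negative (edgeR; 13 and 0 at an unadjusted p under 0.05, 12 and 0 with DESeq2), and their median day effects were 0.04 in SpIB2 and -1.99 in SpIB1. In SpIB2, PAU5_2 had 15.1, 6.49 and 12.5 CPM on day 5 and 10.47, 16.1 and 11.5 CPM on day 2. In SpIB1 the copy PAU5_2 had 21.9, 7.51 and 8.98 CPM on day 5 and 209, 234 and 209.6 CPM on day 2. The SpIB1 libraries of day 2 were the only high ones, and the interaction was 3.92 ± 0.57 (edgeR adjusted p = 0.000918). PAU17_1 and PAU2 gave 4.04 ± 0.52 and 3.76 ± 0.52; PAU copies can share reads. TIR1, another wall mannoprotein of low oxygen, fell in both strains but further in SpIB1, and was chosen after its values were seen. TIR1_1 averaged 2503 ± 1191 CPM on day 5 and 6327 ± 1940.1 on day 2 in SpIB2, and 198 ± 125 on day 5 and 3846 ± 797 on day 2 in SpIB1, an interaction of 2.94 ± 0.72 (edgeR adjusted p = 0.0119). TIR1_2 gave 2.79 ± 0.58.

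Sterol synthesis fell with time in both strains. Among 56 copies of the mevalonate and ergosterol list 31 fell in SpIB2 and 21 in SpIB1, with medians of -1.23 and -1.43, and 7 had a positive interaction and 0 a negative one (edgeR; 10 and 1 at an unadjusted p under 0.05 and with DESeq2). The 7 copies numbered 4 when replicate 2 of SpIB1 day 5 was left out, and 4 with library totals, where 5 were negative. Among the 39 copies named ERG, 0 were called (edgeR; 1 in each direction at an unadjusted p under 0.05 and with DESeq2), and their median interaction was -0.15. ERG3_1, a sterol desaturase chosen after its values were seen, had 324, 322 and 189 CPM on day 5 and 1099, 1519 and 2161 CPM on day 2 in SpIB2, against 1015, 415 and 574 CPM on day 5 and 4222, 4249.5 and 3309 CPM on day 2 in SpIB1. It fell in both without overlap, and the interaction was 0.04 ± 0.59 with a 95% interval of -1.22 to 1.3, which leaves room for an over 2-fold difference in either direction. The called copies of the list included UPC2_1, described above, the sterol acyltransferase ARE1 (3.04 ± 0.67) and the cytochrome P450 reductase NCP1_2 (2.90 ± 0.73). ARE1 and NCP1_2 fell in SpIB1 and had overlapping days in SpIB2. Without SpIB2 day 5 replicate 1 the interactions of ARE1 and NCP1_2 were 2.26 and 1.80.

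Hexose transporter copies were called in both directions. Of 35 HXT copies 12 were positive (34.3%, against 14.6% over all copies) and 4 negative (11.4%, near the 11.9% over all copies). Their median of 0.38 was -0.43 with library totals. HXT5_2, a transporter of slow-growing and starved cells, had 4177, 1240.2 and 766 CPM on day 5 and 5.41, 9.25 and 4.46 CPM on day 2 in SpIB2, against 61.3, 88.1 and 127 CPM on day 5 and 42.7, 25.8 and 38.8 CPM on day 2 in SpIB1. Its day effect was 8.34 ± 0.75 in SpIB2 and 1.36 ± 0.55 in SpIB1, which missed the threshold (edgeR adjusted p = 0.197), and the interaction was 6.97 ± 0.85 (edgeR adjusted p = 0.00034). HXT3, a low-affinity transporter for plentiful glucose, gave 4.81 ± 0.91 and 6.03 ± 0.85 in the copies HXT3_2 and HXT3_3. The other copies of these genes, HXT5_1 (0.19) and HXT3_1 (1.48), given after their values were seen, were not called. HXT4_2, singled out after its values were seen, rose in SpIB1 and had overlapping days in SpIB2, and gave -2.97 ± 0.78, or -1.57 without both SpIB2 libraries that stood apart. Gluconeogenesis and glyoxylate cycle genes had 18 of 52 positive (34.6%) and 3 negative, with a median day effect of 1.13 in SpIB2 and 0.02 in SpIB1. CAT8_1 and ADR1_2, activators of genes for growth without sugar, and ACS1_2, an acetyl-CoA synthetase, gave 3.41 ± 0.71, 4.82 ± 0.88 and 4.23 ± 0.90. The 3 negative copies, listed after their values were seen, were FDH1 (-2.15), MLS1_1 (-1.74) and ALD2_3 (-1.12). No call was made for the pathway enzymes ICL1 (0.07 and 0.25 in its copies) and PCK1 (2.69 and 1.79), also given after their values were seen. ADR1_2 had 604, 93.7 and 85 CPM on day 5 and 10.47, 15.7 and 16.3 CPM on day 2 in SpIB2, where replicate 1 of day 5 stood far above the other 2 libraries. Without that library the interactions were 5.91 for HXT5_2, 3.95 for HXT3_2, 5.15 for HXT3_3, 2.39 for CAT8_1, 3.25 for ADR1_2 and 2.85 for ACS1_2, all still called (edgeR adjusted p = 0.00505 for ACS1_2, the highest).

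Markers of other states of a yeast culture moved in part along with these groups, and their part in the results above was not tested. Markers of dividing cells had 27 of 102 copies negative (26.5%, against 11.9% over all copies) and 6 positive (5.88%, against 14.6%). The 27 numbered 17 and 10 when replicate 1 or 3 of SpIB1 day 2 was left out, 14 and 17 when replicate 2 or 3 of SpIB1 day 5 was left out, and 15 when replicate 1 of SpIB2 day 2 was left out. They numbered 56 with library totals and 17 with voom weights per strain. The 6 numbered 2, 1 and 2 when replicate 1, 2 or 3 of SpIB1 day 2 was left out, 1, 1 and 3 when replicate 1, 2 or 3 of SpIB1 day 5 was left out, 3 and 3 when replicate 1 or 2 of SpIB2 day 2 was left out, 3 when replicate 1 of SpIB2 day 5 was left out, and 1 with library totals. Summed over the list they came to 6397 to 8465 CPM in SpIB2 on day 5 and 4975 to 9613 CPM on day 2, and to 4804 to 6031 CPM in SpIB1 on day 5 and 4938 to 5121 CPM on day 2. The histone copy HTB2_1 gave -3.50 ± 0.61. Sporulation, meiosis and mating genes had 7 of 82 positive (8.54%) and 4 negative (4.88%), both below the background shares, with a median of -0.11. The counts were 3 and 13 with library totals and 11 and 7 with DESeq2. Their sum was 1013 to 1356 CPM in SpIB2 on day 5 and 828 to 996 CPM on day 2, and 886 to 939 CPM in SpIB1 on day 5 and 883 to 933 CPM on day 2; no listed copy of either list was at 0 reads in all libraries. IME2_2, a kinase that starts meiosis, had 385, 214 and 156 CPM on day 5 and 4.51, 8.38 and 8.46 CPM on day 2 in SpIB2, against 8.3, 8.93 and 13.4 CPM on day 5 and 7.22, 8.32 and 5.94 CPM on day 2 in SpIB1, an interaction of 4.62 ± 0.53 (edgeR adjusted p = 0.000224). SPO11_3, which makes the DNA breaks of meiosis, gave 5.10 ± 0.68; both lie far from the list's median.

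Of 3904 symbols with a pair of tested copies, both were called in the same direction for 451 (11.6%) and in opposite directions for 11, 1 of the pair was called for 1067, and neither for 2375. Across symbols the correlation of the interaction between the copies was 0.65, a description over symbols that are not independent and whose copies can share reads. Where 1 copy was called, the other had the same sign in 837 symbols and the opposite sign in 230. RRP46, a subunit of the RNA exosome, ranked first of the 11 by the smaller interaction of its pair. RRP46_1 had 3.43, 12.6 and 15.2 CPM on day 5 and 25.3, 21.5 and 31.1 CPM on day 2 in SpIB2, against 17.1, 18.8 and 12.6 CPM on day 5 and 11.5, 12.3 and 9.91 CPM on day 2 in SpIB1. RRP46_2 had 245, 84.4 and 123 CPM on day 5 and 15.3, 23.4 and 26 CPM on day 2 in SpIB2, against 46.6, 51.2 and 47.9 CPM on day 5 and 46, 46.4 and 55.6 CPM on day 2 in SpIB1. The first copy fell and the second rose in SpIB2, with interactions of -1.81 ± 0.51 (edgeR adjusted p = 0.021) and 2.82 ± 0.49 (edgeR adjusted p = 0.00232). The call of RRP46_1 ended when replicate 3 of SpIB1 day 2 or replicate 2 of SpIB1 day 5 was left out. BUB3, of the spindle checkpoint, gave -1.47 ± 0.36 for BUB3_1 and 3.07 ± 0.42 for BUB3_2. The 451 symbols numbered 238, 264 and 203 when replicate 1, 2 or 3 of SpIB1 day 2 was left out, 252 and 228 when replicate 1 or 2 of SpIB1 day 5 was left out, and 299 when replicate 1 of SpIB2 day 2 was left out. The 11 symbols numbered 4, 6 and 1 when replicate 1, 2 or 3 of SpIB1 day 2 was left out, 4, 2 and 5 when replicate 1, 2 or 3 of SpIB1 day 5 was left out, 5 when replicate 1 of SpIB2 day 2 was left out, and 7 and 19 when replicate 1 or 2 of SpIB2 day 5 was left out.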

How the data were processed

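PolyA RNA of 12 libraries was sequenced, and the authors deposited raw counts per gene copy. The submitters' processing notes name Trimmomatic 0.38 and STAR 2.7.3a, and also HTSeq 0.11.1 and edgeR 3.34.0; genome build, annotation and strand setting were not given in the sources used here. In 35 copies 1 cell of the deposited counts held the strain's name in place of a number, and these copies were dropped, which left 11277. Totals ran from 6425009 to 7922547 reads in SpIB1 and from 5133175 to 6494827 in SpIB2, and depth limits copies with few reads. Under 10 reads were counted for 254 tested copies in SpIB1, the strain with the larger totals in most libraries, and for 7 in SpIB2. The cause of that difference was not tested.

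edgeR 4.0.16 (R 4.3.3) served for the tests, after its default expression filter and with TMM scaling, a coefficient for each of the 4 groups and robust quasi-likelihood fits over all 12 libraries. The interaction and the day effect of each strain were contrasts of that fit, adjusted by the Benjamini-Hochberg method over all 10659 copies. The code was tested on simulated data. Named genes came from a rule: the copies of the maltose list; up to 15 copies each way with the largest called interaction; up to 10 copies each way of the opposite classes, ranked by the smaller day effect; up to 4 called members per list; and up to 6 symbols with copies called in opposite directions. Apart from the maltose copies, each needed a mean of at least 10 CPM in its highest group and at least 10 reads in every group. The text prints part of these and states its exceptions. Members and lists were chosen with earlier results of these data known. Alternatives were median-ratio size factors, library totals, no filter, a higher filter (mean count 50), DESeq2 1.42.0, limma 3.58.1 voom with and without weights per strain, a 2-fold minimum, the replicate number as a block, restored unreadable counts, sums per symbol, each library left out, and both SpIB2 libraries that stood apart left out.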

Additional observations from a re-analysis of the deposited data

Results flagged for a closer look

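The difference of the day effects between the strains was itself tested, and it passed for 1554 copies with a positive and 1265 with a negative interaction. The day effects passed the test in both strains, in opposite directions, for 29 copies that rose in SpIB2 and fell in SpIB1 and for 13 that did the reverse. Those 42 copies are brought up for a closer look because each strain's own change points the other way.

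Among the copies that rose in SpIB2 and fell in SpIB1, the interaction was 5.48 for SIP18_1, 5.12 for SIP18_2, 5.00 for SPI1_2, 4.66 for HSP12_2 and 4.24 for GRE1, all of the stress list. It was 5.31 for HXT13_3, 5.20 for PAU17_2, 4.02 for TKL2_2, 3.39 for ALD3_1, 2.95 for UPC2_1 and 2.65 for HEM14_2. Among those that fell in SpIB2 and rose in SpIB1, it was -5.06 for OPT2, -4.60 for GAP1_1, -4.21 for DUR3_1, -4.20 for DIP5, -3.99 for PTR2_1, -3.25 for DAL4_1, -2.85 for GAP1_2, -2.69 for CAR1_1 and -2.50 for DAL3_2. Opposite copies not named here met the same test, and the other called copies passed the test of the difference without opposite calls in both strains. In SpIB2 day 5 replicate 1, HXT13_3 stood at 1571 CPM, the highest of its group. Summed over copies, PAU17 had no called rise in SpIB2 and SPI1 no called fall in SpIB1.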

How the results depend on the processing

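Of 83 called copies named in the text, the negative chaperone and gluconeogenesis copies not counted, 73 kept call and direction in every alternative. The call was lost in at least 1 for 10 (MAL62, MAL11_1, MAL31_4, MAL33_3, MAL63, ZNF1_1, ZNF1_2, IMA2_8, GIT1_1 and RRP46_1), and 0 reversed. Of copies not called, other than partner copies given by their interaction alone, MAL11_2 reversed with library totals (-0.042), as did ERG3_1 (-0.70, and -0.24 to 0.45 with 1 library left out). Library totals gave interactions of 692 positive and 2858 negative (19.5% positive in place of 55.1%), 12 and 21 opposite copies, 1311 copies up in SpIB2, and 155 up and 148 down in SpIB1. DESeq2 gave 111 and 84 opposite copies, 463 up and 660 down in SpIB1, and 711 symbols with copies called alike and 33 with copies called in opposite directions. Voom with weights per strain gave 129 and 98 opposite copies, 1309 down in SpIB2, 991 up and 1278 down in SpIB1, and 7 symbols of opposite copies. Sums per symbol gave 978 positive and 770 negative symbols, 19 opposite up, 1378 up and 1517 down in SpIB2 and 57 up in SpIB1. Without both SpIB2 libraries that stood apart there were 109 and 107 opposite copies and 766 up and 993 down in SpIB1. With 1 library left out, positive interactions numbered 997 to 1769, negative ones 602 to 1493, opposite copies 4 to 60 and 2 to 57, copies up in SpIB2 1889 to 2389 and down 1970 to 2411, up in SpIB1 20 to 366 and down 66 to 547, and symbols with copies alike 203 to 553 and opposite 1 to 19. The causes were not tested. The labels do not say whether replicate numbers pair libraries. Deviations of libraries with the same number correlated from -0.57 to 0.48 over all groups. Between the days of SpIB1 they were 0.48, 0.003 and 0.39 for replicates 1, 2 and 3, against -0.44 to 0.22 for unlike numbers. In SpIB2 they were -0.40, -0.32 and -0.04, against -0.33 to 0.41. The block gave each number 1 term shared by both strains, so pairing within a strain was not tested. With the replicate block, 1146 positive and 801 negative interactions, 14 and 4 opposite copies, 40 up and 166 down in SpIB1, and 277 and 4 symbols were called. With 3 libraries a group the precision of all tests is limited.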

Other observations

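Outside the groups described so far, the list labelled zinc transport, which is not confined to transporters, had 10 of 35 copies with a positive interaction (28.6%, against 14.6% over all copies) and 0 negative (edgeR). The counts were 15 and 0 at an unadjusted p under 0.05, 13 and 0 with DESeq2, and 6 and 3 with library totals. INO1_2, a member of that list that makes inositol phosphate and does not carry zinc, had 7914, 3355 and 2619 CPM on day 5 and 113, 319 and 165 CPM on day 2 in SpIB2, against 415, 271 and 704 CPM on day 5 and 478, 306 and 419.8 CPM on day 2 in SpIB1, an interaction of 4.33 ± 0.76 (edgeR adjusted p = 0.00246). ARO10_2, a decarboxylase of fusel alcohol formation, fell in SpIB1 and had overlapping days in SpIB2. It averaged 230.03 ± 86.8 CPM on day 5 and 367 ± 221 on day 2 in SpIB2, and 59.1 ± 27.6 on day 5 and 586 ± 34.2 on day 2 in SpIB1 (interaction 2.64 ± 0.70). GIT1_1, a permease for glycerophosphoinositol, stood near 1 CPM in SpIB2 on both days and rose in SpIB1, with 42, 97.8 and 91 CPM on day 5 and 9.58, 8.46 and 7.22 CPM on day 2 (interaction -2.86 ± 0.67, edgeR adjusted p = 0.00958, not called by voom with weights per strain). IRA2_1, which switches Ras signalling off, had 1018, 373 and 247 CPM on day 5 and 16.8, 18.3 and 13.2 CPM on day 2 in SpIB2, against 18.1, 19.7 and 20.6 CPM on day 5 and 29.9, 29 and 20.2 CPM on day 2 in SpIB1 (interaction 5.52 ± 0.64). Without SpIB2 day 5 replicate 1, the highest library for INO1_2 and IRA2_1, their interactions were 3.68 and 4.68. Copies with a locus tag alone, which are not named here, had 285 of 1472 positive and 97 negative, and 131 and 268 with library totals.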
